A study of Mus musculus with 8 samples.

Results

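The 55 genes described here encode proteins of mitosis, the kinetochore and cytokinesis. They were taken by gene symbol from a table of read counts, in which all 55 were found among 25239 symbols, and all 55 were expressed enough to be among the 12837 genes tested. The libraries came from osteoblasts of the calvaria (skull cap) of mice, described as primary cells. One group of 4 was labelled KO(OSX-SphK2), and the other 4 were littermate controls labelled WT. Sphk2 encodes sphingosine kinase 2, and osterix (Osx) is the protein of Sp7, a regulator of osteoblast differentiation. The labels do not name the Cre line, the alleles, the age of the mice or how many mice stand behind a library.

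A dividing cell builds a bipolar spindle, attaches each chromosome to it through the kinetochore, and pulls the sister chromatids apart before the cell body is cleaved. Entry is driven by CDK1 bound to A- and B-type cyclins, and exit by the anaphase-promoting complex (APC/C), a ubiquitin ligase that marks cyclin B for destruction. Most of the genes are transcribed in late S, G2 and M phase and are nearly silent in resting cells, and their RNA is often read as a sign of dividing cells. In calvarial cultures, early osteoblast progenitors divide while matrix-forming osteoblasts largely leave the cycle, and macrophages can divide there too. A larger share of dividing cells and more of these transcripts per dividing cell cannot be told apart in bulk RNA.

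Sphk2 itself did not check the labels. It stood at 75.8, 64.2, 82.5 and 133.8 CPM (read counts scaled to a common library total and corrected for composition) in controls 1 to 4 and at 69.7, 72.3, 72.1 and 131.1 CPM in knockout-labelled 1 to 4. These groups overlapped (p = 0.8 by a two-sided exact permutation test). Directions below are therefore those of the knockout-labelled libraries. Library totals lay between 14347495 and 19065421 counts. The 18 macrophage markers summed to 31794 to 41914 CPM in controls, against 32063 to 52386 CPM in the knockout-labelled group, with 9 of 18 tested markers above 0 in log2 fold change. The 12 osteoblast markers summed to 6436 to 16884 and 4161 to 15697 CPM. The macrophage sum thus lay above the osteoblast sum in every library. Lyz2 alone held 17736 of the 31794 macrophage CPM in control 2, where the osteoblast sum was 16884 CPM, so the order there rests on Lyz2. Such sums of unlike genes do not rank the cell types. Bglap, the osteocalcin gene and a marker of mature osteoblasts, stood at or under 0.582 CPM in every library except knockout-labelled 1, at 42.3 CPM. Other osteoblast markers were abundant in every library, with Col1a1 at 907 to 7205 CPM and Sparc at 595 to 2664 CPM. Ibsp and Alpl were also highest in knockout-labelled 1, at 1082 and 83.6 CPM, and reached at most 49.2 and 30.6 CPM elsewhere. Summed osteoclast markers reached 10222 CPM in control 4 and 6748 CPM in its knockout-labelled counterpart, with 172 to 278 CPM in the other 6, so the libraries numbered 4 stood apart in both groups. Counts of genes called are given with and without them. The summed neutrophil and erythroid markers reached at most 3.64 and 1.63 CPM, with Hbb-bs, Hbb-bt, Hba-a1 and Hba-a2 at 0 throughout. Summed haematopoietic progenitor markers stood at 132 to 179 CPM in controls, against 62.6 to 171 CPM in the other group. Most of this sum was Ly6a, at 124 to 153 and 55.6 to 138 CPM, while Kit, Flt3 and Myb stood at or under 0.559 CPM in every library. Summed lymphocyte markers were at 0.815 to 26.9 and 4.72 to 36.0 CPM, with Cd3d at 0, and endothelial markers at 10.02 to 42.1 and 10.3 to 62.9 CPM, with Tek at 0. The part of these other cell types in the results below was not tested.

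Every one of the 55 genes had a positive log2 fold change, against 46.7% of all genes tested, but none passed the threshold in the comparison of the 4 against the 4. The median was 1.10 (range 0.67 to 1.95), against −0.02 over all genes. Together the genes took 0.0956%, 0.169%, 0.122% and 0.168% of the counts in controls 1 to 4 and 0.316%, 0.359%, 0.339% and 0.212% in knockout-labelled 1 to 4. Their summed level was 964, 1702, 1241 and 1713 CPM in the controls, against 3074, 3493, 3283 and 2219.9 CPM in the other group, with means of 1405 ± 367 and 3018 ± 559 CPM (SD, n = 4). The lowest knockout-labelled sum, in number 4, lay above the highest control sum, also in number 4. For 39 of 55 genes all 4 knockout-labelled values lay above all 4 control values, which held for 2.32% of all genes tested, and for 0 of 55 did all lie below (1.27% of all genes).

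**Figure D1:**
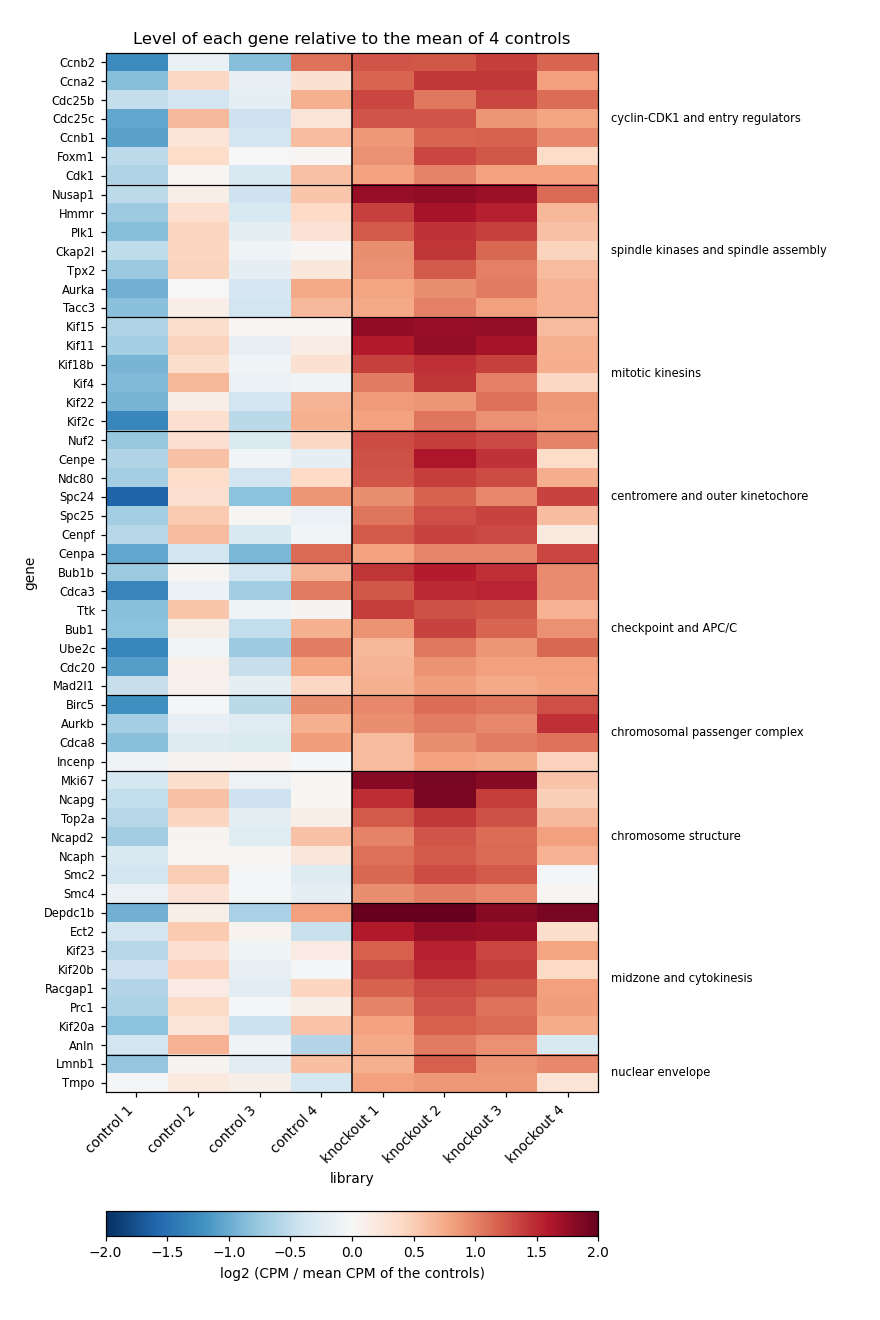
Heat map of the 55 genes (rows, grouped by role) in the 8 libraries (columns); the colour is the log2 ratio of CPM to the mean CPM of the 4 controls. Knockout-labelled 1 to 3 are red throughout, control 1 is the palest or bluest control for most genes, and knockout-labelled 4 is closer to the controls.

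With edgeR's quasi-likelihood test, 0 of 55 members passed an adjusted p of 0.05, where 0% of all genes were called in either direction. Unadjusted p was under 0.05 for 50 of 55 members and for 631 of all genes (4.92%). The 5 members above it were Cenpa, Spc24, Cdc20, Ube2c and Anln. DESeq2 called 31 of 55 higher and 0 lower (0.89% and 0.358% of its genes), and limma-voom 0. With a term for library number 4, edgeR called 23 higher and 0 lower (2.73% and 1.92% of all genes). With libraries paired by number, edgeR called 11 of 55 higher and 0 lower, where 1.31% and 1.18% of all genes were called, and unadjusted p was under 0.05 for 55 of 55 members and 20.9% of all genes. The 11 called were Tmpo, Incenp, Aurkb, Ect2, Ncaph, Prc1, Depdc1b, Kif23, Mad2l1, Spc25 and Ckap2l, with adjusted p of 0.0241 to 0.0454, and the other 44 had adjusted p of 0.0530 to 0.165. These paired calls fell to 0 when both libraries of number 1, of number 2 or of number 3 were left out. When number 4 was left out, the unpaired test called 47 of 55 higher and 0 lower (7.78% and 6.29% of all genes), and the paired test 52 higher and 0 lower (12.3% and 11.9%). The 8 not called without number 4 in the unpaired test were Ccnb1, Cdc25c, Tpx2, Kif2c, Kif4, Cenpf, Spc24 and Anln, of which Kif2c, Cenpf and Anln were not called in the paired one either.

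The genes share features of sequence that the choice of members did not use. Many mitotic promoters carry a short element called the cell cycle genes homology region, TTTGAA or TTTAAA, bound by the MuvB complexes of resting and of dividing cells, together with CCAAT boxes bound by NF-Y. RefSeq windows from 250 bases before to 50 bases after a gene start on GRCm38.p6 were held for 44 of 55 genes, in 47 windows. TTTGAA, read on either strand, was in 36 of 47 (76.6%), against 17.9% of all 32851 windows of that length. TTTGAA or TTTAAA was in 40 of 47 (85.1%, against 27.6%), and within 50 bases of the gene start in 35 of 47 (74.5%, against 8.28%). CCAAT on either strand was in 35 (74.5%, against 37.4%) and appeared 2 or more times in 24 (51.1%, against 11.7%). CCAAT stood with TTTGAA or TTTAAA in 33 of 47 (70.2%, against 10.7%). Overlapping matches were counted separately, and windows of Ect2, Prc1 and Tmpo that belong to one gene are not independent.

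The 250 bases upstream of 6 gene starts are shown, 5′ to 3′ in the direction of the gene, with every match to CCAAT, and every match to TTTGAA or TTTAAA, on either strand in capitals. Cdk1, Cdc20, Ube2c, Top2a and Kif11 are shown because both kinds of element lie upstream in a short stretch, and Ncaph because its log2 fold change was among the most precisely measured and its window holds neither.
Cdk1 (chr10:69352913-69353162, minus strand): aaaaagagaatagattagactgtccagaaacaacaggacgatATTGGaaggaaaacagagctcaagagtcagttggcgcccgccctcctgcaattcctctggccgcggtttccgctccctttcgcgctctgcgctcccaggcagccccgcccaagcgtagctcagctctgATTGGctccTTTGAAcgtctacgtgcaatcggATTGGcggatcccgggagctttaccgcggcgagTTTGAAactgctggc
Cdc20 (chr4:118437344-118437593, minus strand): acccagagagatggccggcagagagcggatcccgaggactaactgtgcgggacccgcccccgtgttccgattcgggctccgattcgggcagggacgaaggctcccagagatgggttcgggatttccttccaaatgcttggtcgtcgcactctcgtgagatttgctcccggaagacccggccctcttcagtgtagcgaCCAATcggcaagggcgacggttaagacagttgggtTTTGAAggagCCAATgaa
Ube2c (chr2:164769679-164769928, plus strand): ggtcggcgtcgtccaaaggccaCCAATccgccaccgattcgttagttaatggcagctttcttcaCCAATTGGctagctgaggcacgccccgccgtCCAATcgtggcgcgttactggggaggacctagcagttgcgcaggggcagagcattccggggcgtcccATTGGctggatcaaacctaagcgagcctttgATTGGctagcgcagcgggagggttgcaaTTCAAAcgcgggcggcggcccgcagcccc
Top2a (chr11:99024190-99024439, minus strand): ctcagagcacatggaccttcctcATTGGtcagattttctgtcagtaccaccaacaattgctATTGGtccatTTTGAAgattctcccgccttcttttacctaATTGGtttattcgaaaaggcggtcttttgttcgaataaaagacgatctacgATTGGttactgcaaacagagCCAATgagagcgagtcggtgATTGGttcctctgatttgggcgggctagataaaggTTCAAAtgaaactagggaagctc
Kif11 (chr19:37376132-37376381, plus strand): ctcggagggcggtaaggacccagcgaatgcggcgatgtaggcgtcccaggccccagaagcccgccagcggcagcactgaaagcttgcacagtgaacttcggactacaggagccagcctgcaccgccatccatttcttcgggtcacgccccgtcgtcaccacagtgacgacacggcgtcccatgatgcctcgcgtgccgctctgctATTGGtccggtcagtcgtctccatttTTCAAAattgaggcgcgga
Ncaph (chr2:127133955-127134204, minus strand): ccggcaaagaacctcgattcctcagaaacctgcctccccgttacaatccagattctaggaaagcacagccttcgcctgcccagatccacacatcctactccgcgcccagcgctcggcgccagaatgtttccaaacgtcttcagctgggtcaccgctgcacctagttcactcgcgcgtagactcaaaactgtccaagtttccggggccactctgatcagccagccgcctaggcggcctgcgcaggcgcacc
In Ube2c and Top2a, 6 CCAAT matches preceded the gene start, and in Cdk1, Cdc20 and Kif11 there were 3, 2 and 1. The TTTGAA match nearest the start lay 15 bases upstream in Cdk1, 18 in Cdc20, 19 in Kif11, 23 in Top2a and 29 in Ube2c. Windows of 7 genes held neither TTTGAA nor TTTAAA, namely Bub1, Cdc25b, Mad2l1, Ncaph, Nuf2, Nusap1 and Tacc3. Their median log2 fold change was 1.10 (range 0.78 to 1.62), and that of the 37 with either was 1.12 (0.69 to 1.62). A match is a description of letters and not a measured binding site.

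Regulators of entry into mitosis had a median log2 fold change of 1.06 over 7 genes, of which 0 passed with or without pairing and 5 passed without number 4. Beside the counts of this and the following roles stand the shares of all genes called higher. These were 0% unpaired, 1.31% with pairing, and 7.78% unpaired without number 4. Cdk1, the kinase that starts mitosis, stood at 18.7, 29.5, 23.2 and 42.9 CPM in the controls, against 49.9, 56.6, 49.7 and 49.7 CPM in the knockout-labelled libraries. Ccnb1, the cyclin that activates it, stood at 9.84, 25.01, 15.9 and 31.6 CPM against 37.4, 46.4, 46.8 and 40.1 CPM. In both genes the groups did not overlap, and the narrowest gap was in number 4. Cdc25b, a phosphatase that removes the inhibitory phosphates of CDK1, stood at 15.3, 16.3, 18.6 and 34.7 CPM and at 53.8, 44.1, 53.8 and 45.9 CPM. It differed by 1.22 (SE 0.27) on the log2 scale, with an edgeR adjusted p of 0.471. Ccnb2, the second B-type cyclin, had the widest spread of the 7 in controls (SD 11.8 CPM), at 6.35, 13.9, 8.44 and 32.4 CPM. In the knockout-labelled libraries it stood at 36.4, 36.2, 39.8 and 34.2 CPM. Control 4 thus came within 2 CPM of knockout-labelled 4, while controls 1 to 3 were far below every knockout-labelled library. Foxm1, a transcription factor that activates G2 and M phase genes, stood at 16.8, 31.3, 24.2 and 24.5 CPM against 45.7, 61.0, 57.2 and 31.2 CPM. Its groups overlapped only through control 2, which was slightly above knockout-labelled 4. The remaining pair, Ccna2, which acts in S and G2 phase, and Cdc25c, a further CDK1 phosphatase, differed by 1.22 (SE 0.28) and 1.06 (SE 0.37), and Cdc25c was low throughout, at 1.43 to 7.01 CPM.

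Spindle kinases and spindle assembly genes had a median of 1.03 over 7 genes, and Ckap2l, a spindle-associated protein, was the 1 that rose with pairing. Nusap1, which bundles spindle microtubules near chromosomes, stood at 8.36, 13.2, 9.08 and 17.7 CPM in controls, against 40.5, 41.5, 39.7 and 26.6 CPM in the knockout-labelled group. Knockout-labelled 1 to 3 were nearly level and the groups did not overlap, with a mean 3.07 times that of controls. Plk1, the polo kinase needed for centrosome maturation, stood at 11.3, 27.2, 17.8 and 24.7 CPM against 47.5, 55.2, 52.1 and 30.4 CPM. Aurka, the centrosomal Aurora kinase, stood at 7.46, 14.5, 11.5 and 24.6 CPM against 25.1, 27.8, 29.8 and 23.5 CPM. In Aurka control 4 lay above knockout-labelled 4, so the groups overlapped through that number alone. The activator of Aurka, Tpx2, had a log2 fold change of 0.96 (SE 0.26), its partner Tacc3 0.82 (SE 0.30), and the hyaluronan-mediated motility receptor Hmmr, a spindle pole protein, 1.35 (SE 0.31).

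Of the mitotic kinesins, motor proteins that slide, cross-link or shorten spindle microtubules, 0 of 6 passed with pairing and 4 passed without number 4, and the median was 1.14. Kif15, which can stand in for Kif11 in keeping spindle poles apart, stood at 6.19, 12.1, 9.72 and 9.72 CPM in controls, against 32.3, 31.5, 32.0 and 14.6 CPM in the other group. Kif11 itself stood at 13.2, 28.4, 18.7 and 23.3 CPM against 62.8, 70.5, 65.5 and 34.2 CPM. For both motors, knockout-labelled 1 to 3 were well separated from every control and knockout-labelled 4 lay just above the highest. Kif2c, a depolymerase at the centromere, stood at 6.24, 19.5, 10.5 and 25.2 CPM against 26.9, 32.2, 29.1 and 27.9 CPM. Its groups did not overlap, although control 4 came close to the lowest knockout-labelled value. Kif18b, Kif4 and Kif22, of which the latter pair are chromosome-bound, differed by 1.26 (SE 0.30), 1.02 (SE 0.34) and 0.93 (SE 0.32).

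The 7 centromere and outer kinetochore genes among the members had a narrow range of log2 fold change, 1.04 to 1.26, with a median of 1.12. That range holds for these 7 only. Outside them, the kinetochore genes Mis12 and Knl1 stood at 0.18 (SE 0.12) and 1.56 (SE 0.47). Spc25, of the NDC80 complex that grips microtubule ends, rose with pairing (1.13, SE 0.19). The other subunits of that complex, Ndc80, Nuf2 and Spc24, differed by 1.19 (SE 0.29), 1.26 (SE 0.27) and 1.12 (SE 0.50) without pairing. Nuf2 stood at 6.56, 14.0, 9.14 and 14.8 CPM in controls, against 27.6, 29.0, 27.7 and 22.2 CPM in the knockout-labelled libraries, with no overlap. Cenpf, a large protein of the kinetochore corona, stood at 18.6, 43.0, 22.4 and 26.6 CPM against 64.9, 70.5, 69.3 and 31.8 CPM. Its control 2 exceeded knockout-labelled 4, and the motor protein Cenpe (1.25, SE 0.33) showed the same overlap. Cenpa, the histone variant that marks centromeres, stood at 10.7, 17.2, 11.8 and 48.7 CPM against 38.5, 43.5, 43.3 and 55.9 CPM. Control 4 stood above 3 of the 4 knockout-labelled values for Cenpa, and the exact two-sided permutation p was 0.114.

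Checkpoint genes and partners of the APC/C had a median of 1.10 over 7 genes. Mad2l1, which holds back the APC/C while kinetochores are unattached, rose with pairing (0.81, SE 0.13), and all 7 passed without number 4. Bub1b, a kinase-like protein of the same checkpoint, stood at 14.0, 23.4, 17.9 and 37.2 CPM in controls, against 62.5, 68.4, 63.4 and 44.5 CPM in the other group. The groups of Bub1b did not overlap. Cdc20, the APC/C activator that the checkpoint holds, stood at 10.3, 23.8, 16.1 and 38.5 CPM against 35.5, 41.3, 39.1 and 39.0 CPM. Ube2c, the E2 enzyme of the APC/C, stood at 9.10, 21.5, 13.6 and 45.5 CPM against 35.5, 46.8, 41.3 and 49.9 CPM. For Cdc20 and Ube2c control 4 lay among the knockout-labelled values, and the difference within number 4 was 0.02 and 0.13 on the log2 scale. Cdca3, which promotes mitotic entry, was at 33.9, 40.5, 41.2 and 27.5 CPM in the knockout-labelled group and had the most negative difference within number 4, −0.10. The kinases Bub1 and Ttk differed by 1.10 (SE 0.33) and 1.17 (SE 0.31).

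The chromosomal passenger complex corrects faulty attachments and later directs cleavage, and 2 of its 4 genes rose with pairing, Aurkb (1.18, SE 0.14) and Incenp (0.67, SE 0.06). Incenp, the scaffold, stood at 72.6, 79.9, 80.9 and 74.7 CPM in controls, against 119, 134, 131 and 106 CPM in the knockout-labelled libraries. The gene lies on GRCm38 at chr19:9872296-9899551, minus strand. It had the smallest log2 fold change of the 55 and, relative to their mean, the tightest controls, and its differences within pairs were 0.71, 0.75, 0.70 and 0.50. Per kilobase of the longest coding transcript it was also the most abundant member in controls, at 23.8 CPM per kilobase. Aurkb, the kinase, stood at 8.47, 12.1, 11.4 and 22.1 CPM against 25.9, 27.4, 26.5 and 37.1 CPM. In Aurkb number 4 was the highest library of both groups. Birc5, which encodes survivin, stood at 6.77, 15.5, 10.9 and 30.3 CPM against 31.0, 34.4, 33.2 and 38.7 CPM. Its highest control came within 1 CPM of its lowest knockout-labelled library. Cdca8, which encodes borealin, differed by 0.93 (SE 0.34) with overlapping groups.

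Chromosome structure genes had a median of 1.06 over 7 genes, of which Ncaph, the kleisin subunit of condensin I, rose with pairing (1.06, SE 0.16). Ncaph stood at 14.7, 18.5, 18.5 and 21.2 CPM in controls, against 39.1, 42.8, 40.0 and 29.6 CPM in the other group. Mki67 (GRCm38 chr7:135689784-135716361, minus strand), whose protein coats mitotic chromosomes, stood at 99.6, 162, 119 and 129 CPM against 451, 477, 451 and 189 CPM. Top2a, the topoisomerase that untangles sister chromatids, stood at 63.1, 127, 82.2 and 103 CPM against 218, 250.01, 226 and 146 CPM. None of these 3 genes had overlapping groups, and the mean of Mki67 was 3.08 times and that of Top2a 2.24 times that of controls. Smc2, an ATPase subunit of both condensins, stood at 26.3, 48.2, 33.8 and 28.8 CPM against 76.0, 84.3, 79.8 and 33.7 CPM. Knockout-labelled 4 lay among the controls for Smc2, and also for its partner Smc4 (0.79, SE 0.23). The condensin I subunits Ncapg and Ncapd2 differed by 1.39 (SE 0.35) and 1.06 (SE 0.26), so the 5 condensin genes among the members ran from 0.79 to 1.39. The condensin II subunits Ncapg2, Ncapd3 and Ncaph2, which are not members, were lower, at 0.51 (SE 0.52), 0.42 (SE 0.11) and 0.24 (SE 0.17).

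**Figure D2:**
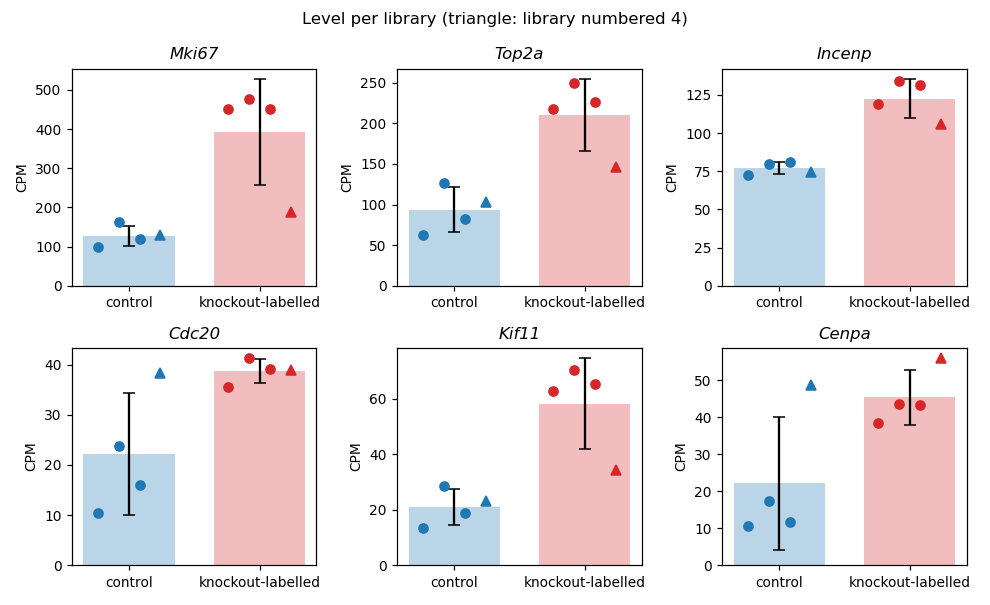
CPM per library for 6 genes; bars are the mean and lines the SD of 4 libraries, and triangles mark the libraries numbered 4. Mki67, Top2a and Kif11 show knockout-labelled 4 low within its group, while Cdc20 and Cenpa show control 4 among the knockout-labelled values.

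Midzone and cytokinesis genes held 4 of the 11 paired calls, Ect2, Prc1, Depdc1b and Kif23, and had a median of 1.18 over 8 genes. Kif23, a motor of the centralspindlin complex, stood at 15.5, 28.9, 21.5 and 25.7 CPM in controls, against 52.5, 66.7, 57.5 and 39.7 CPM in the knockout-labelled group. Its partner Racgap1 differed by 1.15 (SE 0.23). Ect2, which centralspindlin recruits to activate RhoA at the cleavage furrow, stood at 9.37, 17.4, 12.6 and 8.81 CPM against 36.2, 40.1, 39.5 and 15.3 CPM. Ect2 control 2 exceeded knockout-labelled 4, although the difference within number 4 was 0.79. Depdc1b (GRCm38 chr13:108316332-108407782, plus strand) had the largest log2 fold change of the 55, 1.95 (SE 0.39), from low levels of 0.794 to 2.73 CPM in controls, against 5.45 to 6.58 CPM in the others, on 15 to 121 counts. Anln, which encodes the furrow scaffold anillin, stood at 37.0, 78.2, 46.0 and 32.2 CPM against 81.5, 99.2, 91.4 and 39.1 CPM. Anln had the largest unadjusted p of the 55 without pairing, an exact two-sided permutation p of 0.143, and no call without number 4. Prc1, which bundles the central spindle, differed by 1.05 (SE 0.21), and the kinesins Kif20a and Kif20b by 0.98 (SE 0.30) and 1.21 (SE 0.28).

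The nuclear envelope genes had smaller log2 fold changes than most, and both had groups that did not overlap. Tmpo, which encodes the lamina-associated LAP2 proteins, rose with pairing (0.72, SE 0.06), and stood at 75.3, 87.6, 83.4 and 60.1 CPM in controls, against 135, 140.1, 139 and 92.6 CPM in the other group. Lmnb1, a B-type lamin, stood at 12.4, 22.1, 18.3 and 32.1 CPM against 34.7, 48.7, 39.6 and 41.5 CPM, and its paired adjusted p was 0.0530. Number 4 was the lowest library of both groups for Tmpo but not for Lmnb1.

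**Figure D3:**
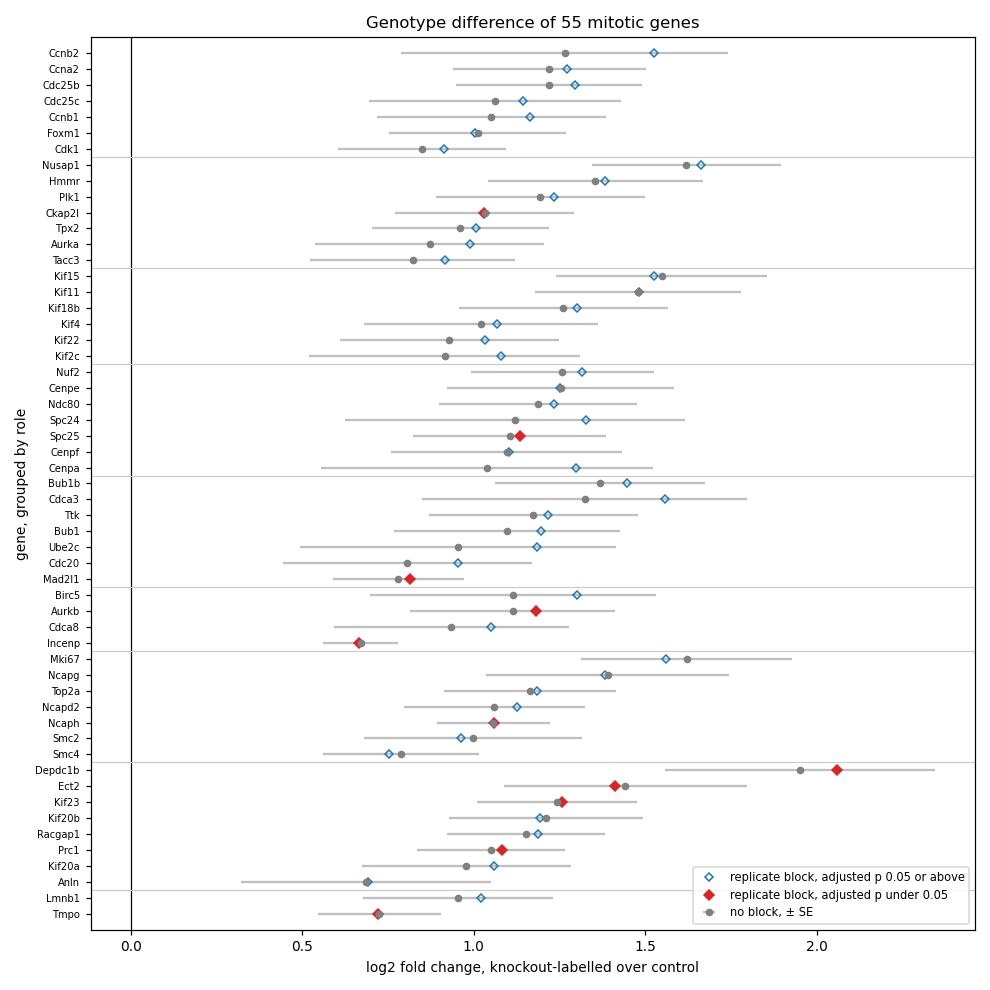
Log2 fold change of each gene, knockout-labelled over control; grey points and lines are the unpaired estimate and its SE, and diamonds the paired estimate, filled red for the 11 genes past the threshold. Estimates run from 0.67 for Incenp to 1.95 for Depdc1b without pairing.

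Across the 55 genes, 38 had an unpaired log2 fold change of 1 or more, against 1.78% of all genes tested. The median SE was 0.31, and that of all genes 0.25. Levels per kilobase ran from 0.60 CPM per kilobase for Depdc1b to 23.8 for Incenp in controls, and from 2.33 for Depdc1b to 40.2 for Top2a in the knockout-labelled libraries. Spearman rho between level and log2 fold change was −0.26 (n = 55 genes that share the same 8 libraries).

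With number 4 left aside, the controls varied among themselves more than the knockout-labelled group, and the genes did so together. Over all 4 libraries the summed level had an SD of 367 CPM in controls and 559 CPM in the other group. Their means were 1405 and 3018 CPM. Among numbers 1 to 3 the median SD of log2 CPM was 0.51 in controls and 0.12 in the other group, against 0.14 and 0.10 over all genes tested. The control SD was the larger one for 53 of 55 genes, against 64.2% of all genes. Control 1 was the lowest control for 51 of 55 (20.1% of all genes), and 53 of 55 had control 2 above control 3 and control 3 above control 1 (22.5% of all genes). The summed level in control 2 was thus 1702 CPM against 964 CPM in control 1, while knockout-labelled 1 to 3 stayed between 3074 and 3493 CPM. The summed osteoblast markers ran the same way in these controls, at 7713, 16884 and 10213 CPM in numbers 1, 2 and 3, and the macrophage markers the other way, at 41914, 31794 and 40934 CPM. The osteoblast order did not hold elsewhere. Control 4 had the lowest osteoblast sum of the controls, 6436 CPM, and the highest sum of the 55 genes, 1713 CPM. In knockout-labelled 1 to 3 the 55 genes summed to 3074, 3493 and 3283 CPM. There the osteoblast sums were 15697, 10591 and 10774 CPM, and the macrophage sums 35516, 32063 and 34727 CPM. The part of these markers in the spread was not tested.

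Within same-numbered libraries the difference was positive for 55 of 55 genes in each of numbers 1, 2 and 3, and for 53 of 55 in number 4, where 49.7%, 49.5%, 48.2% and 52.4% of all genes were positive. The exceptions were Aurka and Cdca3. All 4 pairs were positive for 53 of 55 genes, against 15.4% of all genes. The median log2 difference was 1.79, 1.02, 1.46 and 0.39 in numbers 1 to 4. The summed level was 3.19, 2.05, 2.64 and 1.30 times that of the control with the same number. Without number 4, the groups did not overlap for 55 of 55 genes, against 18.2% of all genes. Number 4 therefore had the smallest difference, and 40 of 55 genes had knockout-labelled 4 as the lowest of its group, against 44.5% of all genes.

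**Figure D4:**
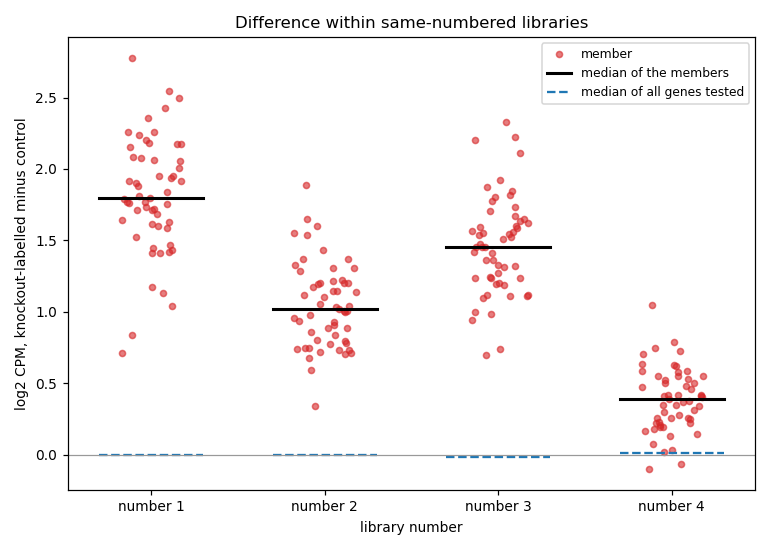
Difference of log2 CPM, knockout-labelled minus control, within each library number; each point is 1 of the 55 genes, black lines are their medians and dashed lines the medians of all genes tested. The medians are 1.79, 1.02, 1.46 and 0.39, and 2 points in number 4 lie below 0.

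A model with a term for number 4 and its product with genotype tested whether the difference in number 4 was unlike that in numbers 1 to 3. The product was negative for 55 of 55 genes, against 49% of all genes, with a median of −1.04. It passed the threshold for 2 of 55, where 1.79% of all genes were called lower and 1.89% higher, namely Nusap1 (−1.40, SE 0.31, edgeR adjusted p = 0.0459) and Cdc25b (−1.19, SE 0.21, edgeR adjusted p = 0.0210). Tmpo had the product nearest 0, at −0.13 (SE 0.14). For the other 53 genes a smaller difference in number 4 is not shown. Each group has 1 library numbered 4, whose spread is taken to be that of the others, and number 4 was set apart with its values known.

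The level in number 4 relative to the rest of its group differed among the genes with transcript length, and also with GC content. In controls, number 4 minus the mean of numbers 1 to 3 ran from −0.67 for Anln to 1.90 for Cenpa on the log2 scale, and was positive for 47 of 55. The median was 1.004 for the 28 genes whose longest coding transcript has 3236 bases or fewer and 0.25 for the 27 longer ones. The 5 highest, Cenpa, Ccnb2, Cdca3, Ube2c and Spc24, had shorter transcripts, and Birc5, just above that length, came next. The 6 lowest, Anln, Ect2, Tmpo, Smc2, Smc4 and Cenpe, all had longer ones, and Spc25, a short transcript, came next. In the knockout-labelled libraries the medians were −0.20 and −0.74, and 9 of 55 were positive. Over the other 12137 genes tested with a known length the medians were 0.37 and −0.39 in controls and 0.31 and −0.36 in the other group, so shorter transcripts stood higher in both libraries numbered 4 in general. Spearman rho with length was −0.64 in controls and −0.63 in the other group for the 55 genes, and −0.46 in both for the rest. With the GC content of the same transcripts rho was 0.50 and 0.53 for the 55 genes, and 0.24 and 0.27 for the rest. Length and GC content were not separated. The genotype difference in numbers 1 to 3 was 1.32 for the shorter and 1.40 for the longer members.

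**Figure D5:**
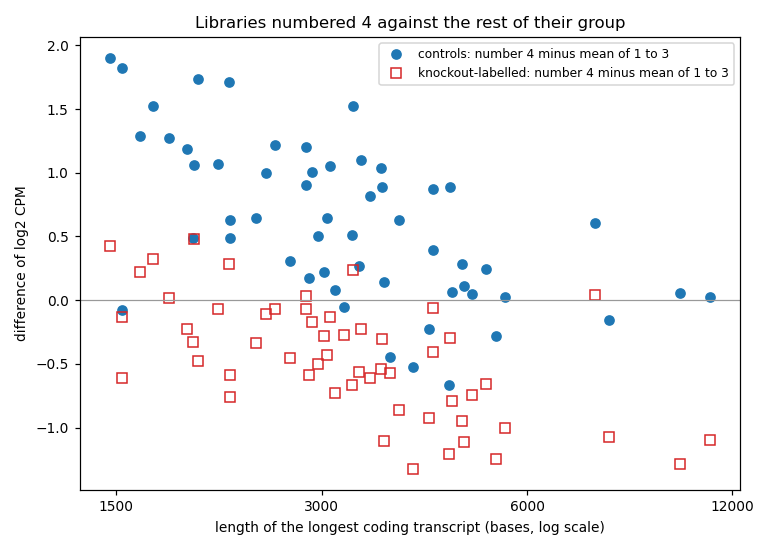
Log2 CPM in number 4 minus the mean of numbers 1 to 3 of the same group, against the length of the longest coding transcript (log axis), for the 55 genes; filled circles are controls and open squares the knockout-labelled group. Both clouds fall with length, and the controls lie mostly above 0 and the others mostly below.

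Of 58 further mitotic genes tested outside the 55, 57 lay above 0, and their median log2 fold change was 0.95. With edgeR on all 8 libraries 0 passed without pairing. With pairing 9 rose and 0 fell, where 1.31% and 1.18% of all genes were called. Without number 4 and without pairing 42 rose and 0 fell (7.78% and 6.29% of all genes), and with pairing 51 rose and 0 fell (12.3% and 11.9%). Pttg1, which encodes securin, was the 1 with a negative value and is named after its value was seen. Fbxo5, which encodes the APC/C inhibitor EMI1, stood at 7.03 ± 1.14 CPM in controls and 12.5 ± 0.754 CPM in the knockout-labelled libraries (SD, n = 4), and rose with pairing (0.84, SE 0.12). The mitotic kinase Pbk (1.05, SE 0.15) and the abscission factor Cep55 (1.34, SE 0.22) also rose with pairing.

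DNA replication and S-phase genes were positive for 38 of 38, with a smaller median of 0.48. With pairing 4 rose and 0 fell, Pcna, the sliding clamp (0.53, SE 0.09), the primase subunit Prim1 (0.77, SE 0.13), Pole and Fen1, where 1.31% and 1.18% of all genes were called. Without number 4, 24 rose and 0 fell (7.78% and 6.29% of all genes), and 32 rose and 0 fell with pairing (12.3% and 11.9%). Lig1 and Mcm10, the other 2 with the smallest unadjusted p, differed by 0.64 (SE 0.17) and 1.21 (SE 0.31) without pairing. The product of genotype with number 4 was called lower for 2 of these 38, Cdt1 and Pola1, and higher for 0 (1.79% and 1.89% of all genes). Espl1 and Ncapg2 were among the further mitotic genes for which it was called lower. Whether mitotic and S-phase genes differed in size was not tested.

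Groups of genes around the cycle that are not confined to mitosis had medians nearer 0. The shares of all genes called, beside which their counts stand, are the same 1.31% higher and 1.18% lower with pairing, 7.78% and 6.29% without number 4, and 12.3% and 11.9% without number 4 and with pairing. The product term was called for 0 of the core APC/C, cohesin and lamina genes. Of 15 core APC/C subunits 9 were positive, with a median of 0.02. With pairing 0 passed, without number 4 2 rose, Anapc15 and the activator Fzr1, and with both 4 rose, and 0 fell in any of these. Cdc20 and Ube2c, which serve the same ligase, stood at 0.81 and 0.95. Anapc15, Anapc4 and Anapc1, which had the smallest unadjusted p, were at 0.59 (SE 0.26), 0.14 (SE 0.10) and 0.17 (SE 0.14). Of 10 cohesin genes, which hold sister chromatids together, 8 were positive with a median of 0.08. With pairing 0 passed, and without number 4 2 rose and 0 fell with or without pairing. The unpaired 2 were Smc1a and Rad21. Over all 8 libraries Smc1a differed by 0.30 (SE 0.10), Rad21 by 0.43 (SE 0.20) and Smc3 by 0.12 (SE 0.17). Of 9 further lamina genes 2 were positive, with a median of −0.13. With pairing 0 passed, without number 4 1 rose and 2 fell, and with both 2 rose and 3 fell. Without number 4 and unpaired, Lmnb2, the other B-type lamin, rose (0.71, SE 0.09), and the inner nuclear membrane genes Sun1 (−0.33, SE 0.06) and Lemd2 (−0.30, SE 0.06) fell. Over all 8 libraries these 3 stood at 0.49 (SE 0.35), −0.24 (SE 0.11) and −0.25 (SE 0.15).

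Of 19 RB, E2F and MuvB factors, which repress or activate cell cycle promoters, 14 were positive with a median of 0.08. With pairing 1 rose and 0 fell, Rbl1, which encodes the pocket protein p107 (0.60, SE 0.08). E2f8 (0.95, SE 0.27) and E2f2 (0.72, SE 0.27) did not pass over all 8 libraries. Without number 4, 5 rose and 0 fell with or without pairing, and the unpaired 5 were Rbl1, E2f2, E2f8, Lin9 and Mybl2. The product of genotype with number 4 was called lower for 1, E2f2 (1.79% of all genes). Of 13 G1 cyclins, CDKs and inhibitors 9 were positive with a median of 0.18. With pairing 0 passed, without number 4 4 rose, and with both 6 rose, and 0 fell in any of these. The unpaired 4 without number 4 were Cdkn2c, Ccnd2, Cdkn2a and Cdkn2b. The product of genotype with number 4 was called lower for 5 of 13 (1.79% of all genes) and higher for 0 (1.89%), and the 5 were Ccnd1, Ccnd2, Cdk6, Cdkn1a and Cdkn2a. The inhibitor of CDK4 and CDK6 Cdkn2c stood at 18.1 ± 8.01 CPM in controls and 45.4 ± 3.78 CPM in the other group (SD, n = 4), a log2 fold change of 1.33 (SE 0.29). Cdk2 and Cdkn2d, next by unadjusted p, were at 0.18 (SE 0.12) and 0.45 (SE 0.39).

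How reads were assigned limits some of these values. All 55 symbols matched 1 gene of GENCODE M21, and for 19 of them exons overlap those of another annotated gene. The largest shares were 29.3% of the exon bases of Kif20a, which overlap Cdc23 on the opposite strand, and 22.8% of Ube2c, which overlap Tnnc2. Kif4, Ncapg, Cdc25c, Ccna2 and Prc1 overlap an opposite-strand gene over 15.1%, 13.4%, 12.7%, 12.5% and 11.1%. The sources used here do not state whether counting used strand. Reads of such partners may therefore not be separable. Pseudogene copies are annotated for Ccnb1, Ccnb2, Kif22 and Kif4, and how reads that fit both were assigned is not given either.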

How the data were processed

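Polyadenylated RNA of 8 libraries was sequenced, 4 per genotype, grouped and numbered by the sample titles. The authors deposited raw counts, whole numbers, for each gene symbol. The submitters' processing notes name STAR 2.7.11b, featureCounts 2, and GRCm38 (mm10) as the build. The annotation, strand setting and treatment of multiply aligned reads are not given in the sources used here.

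Counts were compared with edgeR 4.0.16 in R 4.3.3 (filterByExpr, TMM scaling, robust quasi-likelihood F test, genotype as the only term, Benjamini-Hochberg adjustment over 12837 genes, threshold 0.05). A log2 fold change is knockout-labelled over control, and a prior count of 2 entered each log2 CPM. The SE is the log2 fold change divided by the square root of F. DESeq2 1.42.0, limma 3.58.1 and other scalings, filters and subsets were alternatives. Single genes were also compared by exact permutation (two-sided), whose smallest p for 4 against 4 is 0.0286. Lengths came from GENCODE M21 and promoters from RefSeq, both on GRCm38.

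Within groups, library pairs differed beyond sampling noise (chi-square per degree of freedom 8.56 to 307), so each is 1 sample. No label says that libraries come from separate mice, so p-values measure the spread between libraries. Same-numbered libraries deviated together, with r at least 0.460, and at least 0.161 in numbers 1 to 3 alone. Both lay above the minimum of 0.1, so paired results are given where they change a call. Over all 8, differently numbered libraries among 1 to 3 also had r of 0.416 to 0.572, so 0.460 by itself does not show pairing. Control 1 had a higher r with knockout-labelled 2 (0.489), and knockout-labelled 1 with control 2 (0.511), than with each other. For the other 6 the highest r was within the same number. In numbers 1 to 3 alone this held for 6 of 6. The pairing used comes from the data and not from a label.

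On simulated counts with 200 changed genes, the unpaired test recovered 13.4% of 2-fold and 48.5% of 3-fold changes (12725 genes), and the paired one 85.1% and 97.0%, with 21 false calls among 186. The counts were simulated with levels shared within each library number and the same fold in every pair. That setting favours the paired test by construction. It is also unlike the data, where number 4 had the smallest difference, so these shares do not show which test suits the data. The members, lists and tests were chosen with earlier results of these data known. Library values are given for the members with the smallest and largest unadjusted p of each role and for 15 set by name, and up to 3 genes by unadjusted p are named from each other list. Genes named outside this rule were chosen after their values were seen. They include Pttg1, Pcna, Pole, Fen1, Ncapg2, Ncapd3, Ncaph2, Mis12 and Knl1, and others given as called without number 4 or for the product term.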

Additional observations from a re-analysis of the deposited data

Results flagged for a closer look

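Among the 4 libraries of a group, 13 gene values lay far from the other 3, by the gap to the nearest library relative to the whole range on the log2 scale. With 112 groups examined, chance alone flags about 1 in 20 if values are independent, and genes that share the same libraries are not. The share of all genes flagged by this rule was not computed. Knockout-labelled 4 was the lowest of its group for 44.5% of all genes tested. The 13 are therefore not read as a trait of these genes. All 13 were in the libraries labelled knockout, and 10 were low values in number 4. These were Nusap1 at 26.6 CPM, Kif11 at 34.2, Kif15 at 14.6, Kif18b at 12.8, Cenpf at 31.8, Mki67 at 189, Smc2 at 33.7, Smc4 at 75.3, Ect2 at 15.3 and Tmpo at 92.6 CPM. Aurkb in the same library was high at 37.1 CPM. Cdk1 was high in knockout-labelled 2, at 56.6 CPM, and Kif22 in knockout-labelled 3, at 33.0 CPM.

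In the test of the product term with edgeR, 2 of 55 members were called lower, where 1.79% of all genes were called lower and 1.89% higher. These were Cdc25b, at −1.19 on the log2 scale, and Nusap1, at −1.40, a smaller genotype difference in number 4 than in numbers 1 to 3. Each group has 1 library numbered 4, set apart with its values known, so the 2 calls are not read as a trait of the members. Summed osteoclast markers were also far higher in number 4 of both groups, and their part in the values of Cdc25b and Nusap1 was not tested.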

How the results depend on the processing

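In all 25 alternatives each of the 55 log2 fold changes stayed positive, and 0 genes reversed. With edgeR, all 8 libraries and no block, 0 genes passed in either direction and 631 had an unadjusted p under 0.05. With the replicate block 168 genes were higher and 151 lower, with 11 members higher. With number 4 as a batch term the counts were 351, 247 and 23, and with DESeq2 112, 45 and 31. With the block and without number 4 they were 1593, 1539 and 52. Leaving out libraries moved the unpaired counts from 0 to 1005 higher and from 0 to 812 lower, with 0 to 47 members higher. Only settings without a library numbered 4 gave calls there, with 7 members without control 4, 4 without knockout-labelled 4 and 47 without both. Without both, 7.78% of all genes were called higher and 6.29% lower. The 7 and 4 are not set beside the share of all genes called in their settings, so they are not read further. With the block, leaving out number 1, 2 or 3, tried after seeing the data, gave 0. The members' median stayed between 0.90 and 1.37 when libraries were left out without a block. Other scalings, either filter and limma-voom gave 0 calls and a median of 1.09 to 1.20. Over the 11 members called with the block, adjusted p over all alternatives ran from 1.2e-05 to nearly 1. The cause of these changes was not tested. Fewer libraries also leave fewer residual degrees of freedom. Counts were low for Depdc1b (15 to 121 a library), and the part of depth in its error was not tested.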
